A study of Mus musculus with 16 samples.

Results

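Open chromatin was described around 10 genes of fatty acid synthesis and phospholipid remodelling that are known targets of the liver X receptor (LXR): Srebf1, Acaca, Fasn, Scd1, Scd2, Fads1, Fads2, Elovl5, Lpcat3 and Rnf145. Peaks that overlapped in any of the 4 deposited peak lists were merged into 37648 regions. The 78 regions with a midpoint at most 100 kb from a member's transcription start site (TSS) in GRCm38 were taken. The rule for the regions used no score or presence, but the genes were named with earlier results of these lists known.

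Accessible DNA was mapped by ATAC-seq, a method based on adaptor insertion by the Tn5 transposase, in bone marrow-derived macrophages from C57BL/6J mice (females of 8 to 10 weeks per the methods). Bone marrow cells were differentiated for 7 days in L-cell conditioned medium and deprived of serum for 1 day. On day 8 they received DMSO vehicle (Veh) or, at 500 nM, T0901317 (T0), a synthetic LXR agonist, for 3 h. Cells of the LPS and T0-LPS groups had the same 3 h with vehicle or agonist. Lipopolysaccharide at 10 ng/mL was then added to that medium for 2 h more. LPS therefore cannot be told apart from a longer culture time and, in T0-LPS, from a longer agonist exposure. Each group had 4 libraries of 50000 cells, made from separately differentiated cultures, and the authors called peaks once on the libraries of a group together. No value below therefore has a replicate check or a p-value, and a difference between lists may be within the spread between cultures. The list of a group held 35551 peaks in Veh, 29839 after T0, 33181 in LPS and 31085 in T0-LPS, all within enhancers marked by H3K27ac or H3K4me2 in other macrophages. Read depth was not known, so each peak was placed by its score percentile, the percent of peaks of its own list with a lower score, with peaks of equal score placed at the middle of their ranks. A region took the percentile of its highest peak. The macrophage label was checked at promoters: 8 of 8 macrophage markers had a peak within 1 kb of the TSS in Veh and in LPS, and 7 of 8 did in T0 and in T0-LPS, where Csf1r was missing. None of 4 T cell markers and none of 4 neutrophil markers had one in any list. Ebf1 was the 1 of 4 B cell markers with a promoter peak (all lists but T0), Flt3 and Zbtb46 were the 2 of 3 dendritic cell markers, and Col1a1 was the 1 of 3 fibroblast markers, in Veh.

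LXR binds DNA as a heterodimer with RXR and is activated by oxysterols. Its best known binding element is the DR4, a direct repeat of the hexamer AGGTCA with 4 bases between the copies. In liver and macrophages LXR agonists induce Srebf1, whose product SREBP-1c activates the genes of fatty acid synthesis, and many of these genes also carry LXR elements of their own. ACACA and FASN build saturated fatty acids, and SCD1 and SCD2 desaturate them. FADS1, FADS2 and ELOVL5 make long polyunsaturated chains, and LPCAT3 places such chains into phospholipids.

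The sequences of the regions are shown first, since they differed between the members. A loose DR4, with the letters NGGTNA given again after 4 bases, was chosen with earlier results of these data known. It was sought on both strands in the central 200 bp of every region. It was found in 5 of 78 member regions, or 6.41% (Wilson 95% interval 2.77 to 14.1, counting error only), and in 0.492% of all regions. All 5 lay at the Scd1-Scd2 locus on chromosome 19, and 4 of them resembled each other in sequence (below). The interval treats regions as independent and takes no account of this likeness. Searched over their whole length, 7 of 78 member regions (8.97%) and 1.06% of all regions held the loose DR4, at a median length of 415.5 bp and 405 bp. The additional 2 were a region in an intron of Srebf1 and the Fasn promoter region. The 7 matches are printed from GRCm38 on the strand of the match, with the 16 bases of the loose DR4 in capitals and 20 bases of flank on each side.
Scd2 -45266, chr19:44248275-44248330, plus strand: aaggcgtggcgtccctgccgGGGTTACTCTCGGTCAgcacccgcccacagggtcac
Scd2 -9435, chr19:44284224-44284279, plus strand: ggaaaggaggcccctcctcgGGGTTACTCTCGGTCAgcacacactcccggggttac
Scd2 +20910, chr19:44314568-44314623, plus strand: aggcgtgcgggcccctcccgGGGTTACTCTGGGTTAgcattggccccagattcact
Scd1 +19200, chr19:44388663-44388718, minus strand: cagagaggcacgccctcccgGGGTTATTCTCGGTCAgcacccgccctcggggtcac
Scd1 +13695, chr19:44394118-44394173, minus strand: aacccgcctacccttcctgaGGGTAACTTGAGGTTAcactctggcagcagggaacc
Srebf1 +12031, chr11:60210618-60210673, plus strand: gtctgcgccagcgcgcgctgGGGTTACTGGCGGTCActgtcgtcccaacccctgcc
Fasn +124, chr11:120824737-120824792, plus strand: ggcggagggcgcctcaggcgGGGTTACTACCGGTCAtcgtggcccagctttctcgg
Each region is named by the signed distance in bp of its midpoint from the TSS of the member, negative for upstream. The matches at Scd2 -45266 and Scd2 -9435 had the same 16 bases. The Fasn match was centred at -218 from the TSS, in intergenic sequence upstream of the gene, and the Srebf1 match at 11935 in an intron. The match of Scd2 +20910 differed from the AGGTCA repeat at 4 positions and each of the others at 3.

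The DR4 with up to 2 mismatches to the AGGTCA repeat was in the central 200 bp of 2 of 78 member regions (2.56%), against 1.89% of all regions. These were the Acaca promoter region and the Lpcat3 region at 67176, in an intron of Ptpn6. A single AGGTCA was in 8 regions (10.3%), against 11.9% of all. The core of the sterol regulatory element bound by SREBP, TCACNCCAC, was in 2 (2.56%), against 0.88% of all, in the Rnf145 intron region at 27573 and the region at 21167 from Fads1 that covers the starts of Fen1 and Tmem258. These forms overlap, since AGGTCA is part of the full DR4 and the loose DR4 includes it. At Rnf145, the intron region at 1347 held no loose DR4 but a pair of sequences that differed from it at 1 of its fixed letters, the second of which also met the DR4 rule. They are shown because this region ranked higher with T0 in both comparisons below, with the 16 bases in capitals.
Rnf145 +1241, chr11:44520177-44520232, plus strand: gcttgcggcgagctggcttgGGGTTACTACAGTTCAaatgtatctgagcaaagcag
Rnf145 +1514, chr11:44520450-44520505, minus strand: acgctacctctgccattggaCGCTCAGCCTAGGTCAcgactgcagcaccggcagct
Both lie outside the central 200 bp of this region of 902 bp. Over the whole length, the loose DR4 with up to 1 mismatch was in 21.7% of all regions, and in 37.7% of the 2108 regions of 800 to 1000 bp. A match is a description of letters and not a measured binding site.

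Scd1, Scd2 and their relatives Scd3 and Scd4 stand in a row on chromosome 19, and the open regions between them resembled each other in sequence. All 3003 pairs of member regions were aligned. Of the 20 pairs with an alignment, 8 lay in soft-masked repeats only, 3 between Rnf145 regions and 5 between an Rnf145 and an Scd2 region. Of the remaining 12, all at the Scd locus, 10 joined every pair of the same 5 regions: Scd2 -45266, Scd2 -26474, Scd2 -9435, Scd2 +20910 and Scd1 +19200. The longest of these alignments, between Scd2 -45266 and Scd2 -9435, had 81% identity over 200 bases, and the closest, between Scd2 -45266 and Scd1 +19200, had 92.9% over 113 bases. The alignments were on the plus strand among the Scd2 regions and on the minus strand against Scd1 +19200, as the genes face each other. None of these 10 alignments lay in soft-masked sequence. Of the 5 like regions, 4 carried the loose DR4. Scd2 -26474 carried none, also with 1 mismatch allowed. The fifth loose DR4 region, Scd1 +13695, aligned with Scd2 -12746 (78.2% over 87 bases), and the promoter regions of Scd1 and Scd2 aligned with each other (78.5% over 149 bases). How reads that fit more than 1 of these copies were counted is not given in the sources used here.

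Presence in the lists was counted beside that of all regions. A peak in all 4 lists was found in 56 of 78 member regions (71.8%), against 70.2% of all regions. Regions with a Veh peak missing from the T0 list (T0-closed) were 14 of 73 (19.2%, interval 11.8 to 29.7), against 18.3% of all. T0-opened regions, with a T0 peak missing from the Veh list, were 1 of 61 (1.64%, interval 0.29 to 8.72), against 0.771%. Under LPS, 7 of 70 (10%) lost an LPS peak in the T0-LPS list, against 10.3%, and 4 of 67 (5.97%) had a T0-LPS peak missing from the LPS list, against 3.51%. A Veh peak was missing from the LPS list in 6 of 73 regions (8.22%), against 13.2%, and an LPS peak from the Veh list in 2 of 70 (2.86%), against 6.18%. All 6 member intervals contained the share over all regions.

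**Figure D1:**
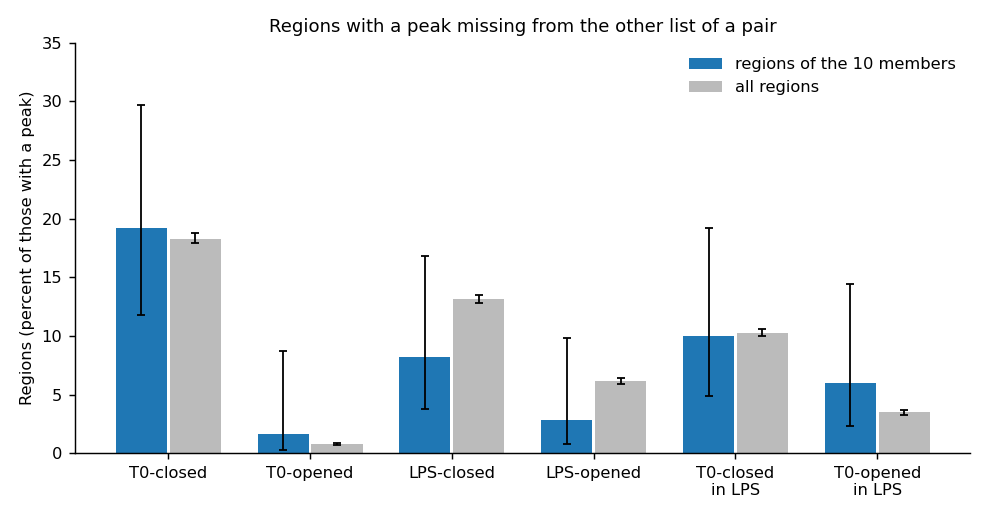
Share of regions (percent, y axis from 0) with a peak in 1 list of a pair that was missing from the other, for the regions of the 10 members (blue) and all regions (grey); lines are Wilson 95% intervals of counting error. The member bar for T0-closed stands at 19.2% beside 18.3%, and every member interval contains the grey bar.

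Ranks were then compared for the regions present in every list. Among these 56, 7 (12.5%) ranked higher by 10 percentile points or more in T0 than in Veh, against 1.96% of the 26439 such regions in the genome, and 19 (33.9%) ranked lower by as much, against 33.1%. In T0-LPS against LPS, 9 (16.1%) ranked higher, against 7.32%, and 9 (16.1%) lower, against 18.4%. The median shift was -3.93 points for T0 minus Veh (all regions -5.33) and 0.12 for T0-LPS minus LPS (all regions -1.57). These T0 pairs share no list. In 4 of the 56 regions (7.14%, interval 2.81 to 17) T0 went with a rank higher by 10 points or more in both pairs, against 0.25% of all regions, and in 7 (12.5%) with a lower rank in both, against 8.67%. Lower ranks depended on the scale: ranked among the regions in all 4 lists only, 2 (3.57%) were lower in both pairs (all regions 2.52%) and 5 (8.93%) lower in T0 than in Veh, while 8 (14.3%) were higher in both (all regions 2.5%). The 2 were Lpcat3 +82623 and Elovl5 +44193. The 4 belonged to Srebf1, to Rnf145 and, in 2 cases, to the Scd locus. Without the Scd1 and Scd2 regions the share higher in both was 4.44% (2 of 45).

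**Figure D2:**
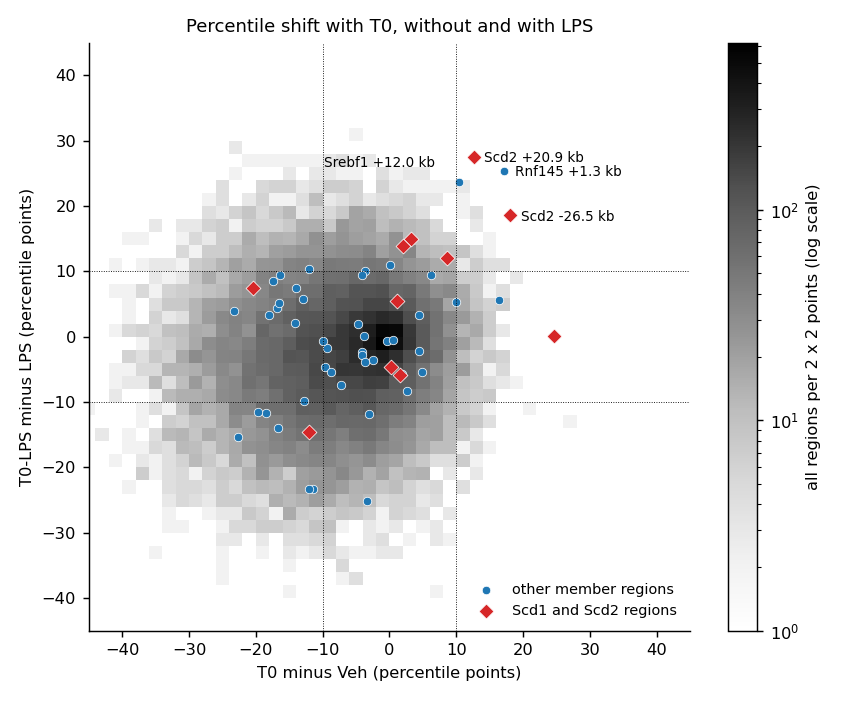
Percentile shift of regions in all 4 lists, T0 minus Veh (x axis) against T0-LPS minus LPS (y axis), in percentile points; grey squares count all regions on a log scale, red diamonds are Scd1 and Scd2 regions and blue points the other member regions. The 4 member regions higher by 10 points or more on both axes are named, and 0.25% of all regions lie there.

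Srebf1, which encodes SREBP-1, had 5 regions, and all 3 of those present in every list ranked higher in T0 than in Veh. Distances are from the annotated start of the gene, and the start of the SREBP-1c transcript was not located. The intron region at 12031 (chr11:60210338-60210762), which holds the loose DR4 shown above, stood at percentile 54.4 in Veh against 64.9 in T0, and 44.5 in LPS against 68.1 in T0-LPS. It was thus higher with T0 by 10.4 points without LPS and by 23.7 with it. The region at -420 (chr11:60222717-60223286) was at 47.7, 64.1, 47 and 52.5 in the same order, with a single AGGTCA and a higher rank mainly without LPS. The third, at 2032 next to the start of a shorter transcript, was at 20.1, 22, 25.9 and 20.2. The remaining 2 were weak and far: the region at 81362 in Rai1 was in Veh (12.1) and T0 (9.7) only, and that at -83200 in Tom1l2 was in Veh only (7.53).

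**Figure D3:**
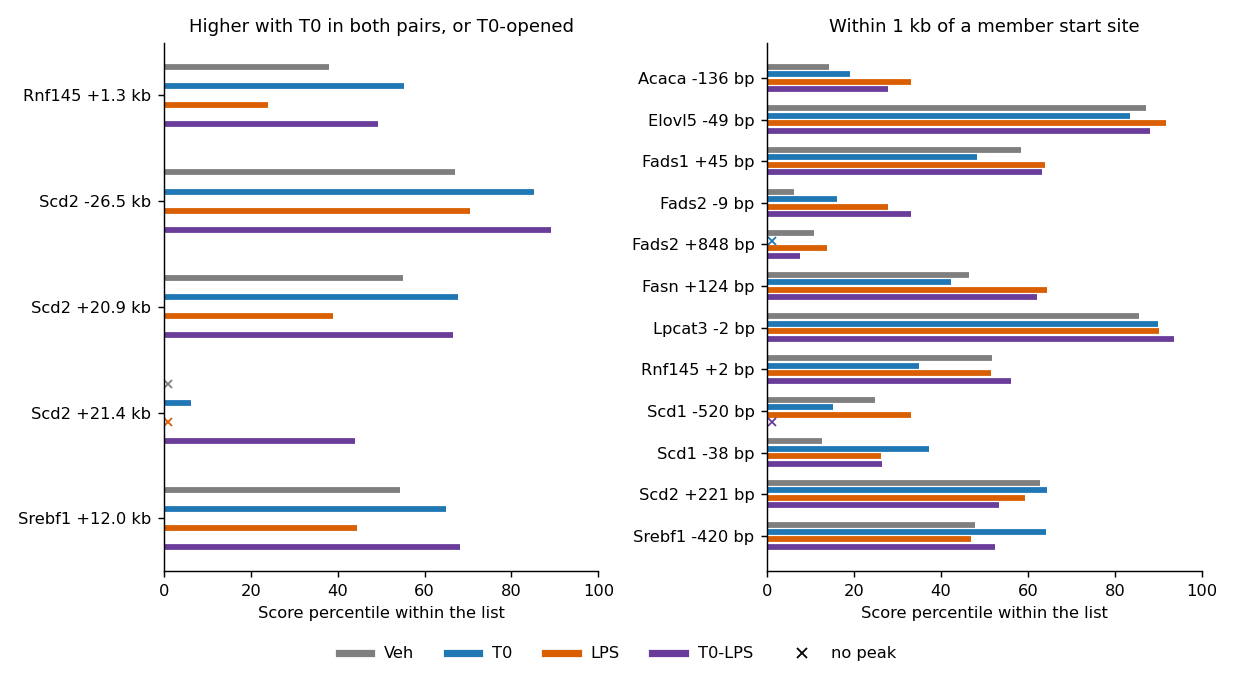
Score percentile within each list (x axis, 0 to 100) for member regions higher with T0 in both pairs or T0-opened (left) and those within 1 kb of a member TSS (right); bars are the 4 lists and a cross marks no peak. On the left the blue bar exceeds the grey and the purple exceeds the orange by the choice of regions. On the right, where regions were chosen by position, this holds at Srebf1 -420 (64.1 against 47.7, 52.5 against 47), Fads2 -9, Lpcat3 -2 and Scd1 -38 (by 0.1 point in the LPS pair).

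Acaca and Fasn, which encode acetyl-CoA carboxylase and fatty acid synthase, had T0 shifts between -12.9 and 9.4 points. Acaca had 2 regions, both in all lists. Its promoter region at -136, shared with Tada2a, was at 14.2 in Veh against 19.1 in T0, and 33.1 in LPS against 27.7 in T0-LPS, higher in the LPS lists. The intron region at 50190 was at 77.1, 83.3, 83.8 and 93.2. It counted as T0-closed because 1 of its 2 Veh peaks was missing from T0, while the other remained. Fasn had 5 regions, of which the promoter region at 124 stood at 46.5, 42.4, 64.4 and 62. LPS alone went with a rank higher by 17.9 points there, and the shifts with T0 were -4.1 and -2.4 points, so this loose DR4 region did not rank higher with T0. The other Fasn regions lay at the promoters or next to Dcxr, Cbr2, Rfng and Dus1l. The Rfng region (40333) was T0-closed, at 10.8 in Veh and 18.1 in LPS, with room in the numbering of the T0 peaks for 1 that the enhancer filter had removed.

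Scd1 and Scd2, the stearoyl-CoA desaturases, had 16 regions between them, 5 of which lay within 100 kb of both. Of the 11 in all lists, 9 ranked higher in T0 than in Veh, against 23.3% of all such regions. In T0-LPS against LPS, 8 ranked higher, against 39.9%. The median shift was 1.98 points and 7.42 points, against -4.65 and -0.59 over the other member regions. Over all regions it was -5.33 and -1.57.

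Scd2 -26474 (chr19:44266847-44267554, intergenic) was at 67 in Veh against 85.1 in T0, and 70.5 in LPS against 89.1 in T0-LPS. T0 went with 18.1 and 18.6 points more, and LPS alone with 3.5. Scd2 -9435 (chr19:44283950-44284528) was at 83.6, 92.1, 84 and 96 and was the highest of the locus in both T0 lists. It just missed the limit in the first pair, at 8.6 points, and passed it in the second at 12 points. Scd2 -45266, the strongest in Veh, was at 87.2, 87.5, 94.8 and 90.1, with no such gain.

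Scd2 +20910 (chr19:44314345-44314824) lies in an intron of AC123853.1, with Scd4 as the nearest coding gene at -18508. It was at 55.1 in Veh against 67.7 in T0, and 39 in LPS against 66.5 in T0-LPS, so that it ranked lowest with LPS alone and highest in the T0 lists, which were close to each other. The gap of 27.5 points between T0-LPS and LPS was the widest of all member regions. Separated from it by 76 bp lay the only T0-opened member region (chr19:44314901-44315175). It had no peak in Veh or LPS, a peak at 6.25 in T0 (199 bp wide) and one at 44 in T0-LPS (275 bp wide). Its flanking peaks in the Veh and LPS lists were numbered consecutively, so no called peak had been filtered out there. This pattern of T0 and T0-LPS only was shared by 18 regions of the genome (0.0478%). The region is printed whole, in lower case since no searched motif is marked in it.
Scd2 +21364, chr19:44314901-44315175, plus strand: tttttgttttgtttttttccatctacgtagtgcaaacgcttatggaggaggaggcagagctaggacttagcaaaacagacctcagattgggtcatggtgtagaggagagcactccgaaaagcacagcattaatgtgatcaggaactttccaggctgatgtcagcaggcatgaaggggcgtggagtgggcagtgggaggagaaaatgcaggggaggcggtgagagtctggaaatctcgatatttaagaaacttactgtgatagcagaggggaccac

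At Scd1 itself, the promoter region at -38 was weak in Veh (12.6) and stood at 37.2 in T0, the largest shift of the T0 and Veh pair at 24.6 points. Under LPS there was no such gap, at 26.2 in LPS and 26.3 in T0-LPS. The neighbouring region at -520 went the other way, at 24.9 in Veh, 15.1 in T0, 33.1 in LPS and no peak in T0-LPS. Downstream of the gene, Scd1 +13695 was at 51.6 in Veh against 53.6 in T0, and 22.8 in LPS against 36.7 in T0-LPS, and Scd1 +19200 was steady at 82.9, 84.1, 80.8 and 86.3. The promoter region of Scd2 (221) was at 62.7, 64.3, 59.2 and 53.4. LPS alone went with lower ranks at several Scd regions. The shift was -28.9 points at Scd1 +13695, -25 at Scd2 -12746 (30.3 to 5.27) and -26.3 at the region next to Scd4 (64.7 to 38.3). In T0-LPS, Scd2 -12746 stood at 20.2, higher than in LPS by 15 points.

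Not all of the locus followed this pattern. The Scd2 -67671 region, in an intron of Scd3, ranked lower with T0 in both pairs. It was at 57.7 in Veh against 45.7 in T0, and 42.4 in LPS against 27.7 in T0-LPS. Ranked among the regions in all 4 lists, its shift in T0 minus Veh was -4.4. The region next to Scd4 had a shift of -20.4 points in T0 minus Veh. Scd2 -29265 (34.1 in Veh and 36.4 in LPS) had no peak in either T0 list, and there was room for 1 filtered peak in T0. A pair of regions was in T0-LPS only: Scd2 +1209 in the first part of the gene (5.68), and Scd1 +44301 (38.3), where each of the other lists had room for 2 filtered peaks.

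**Figure D4:**
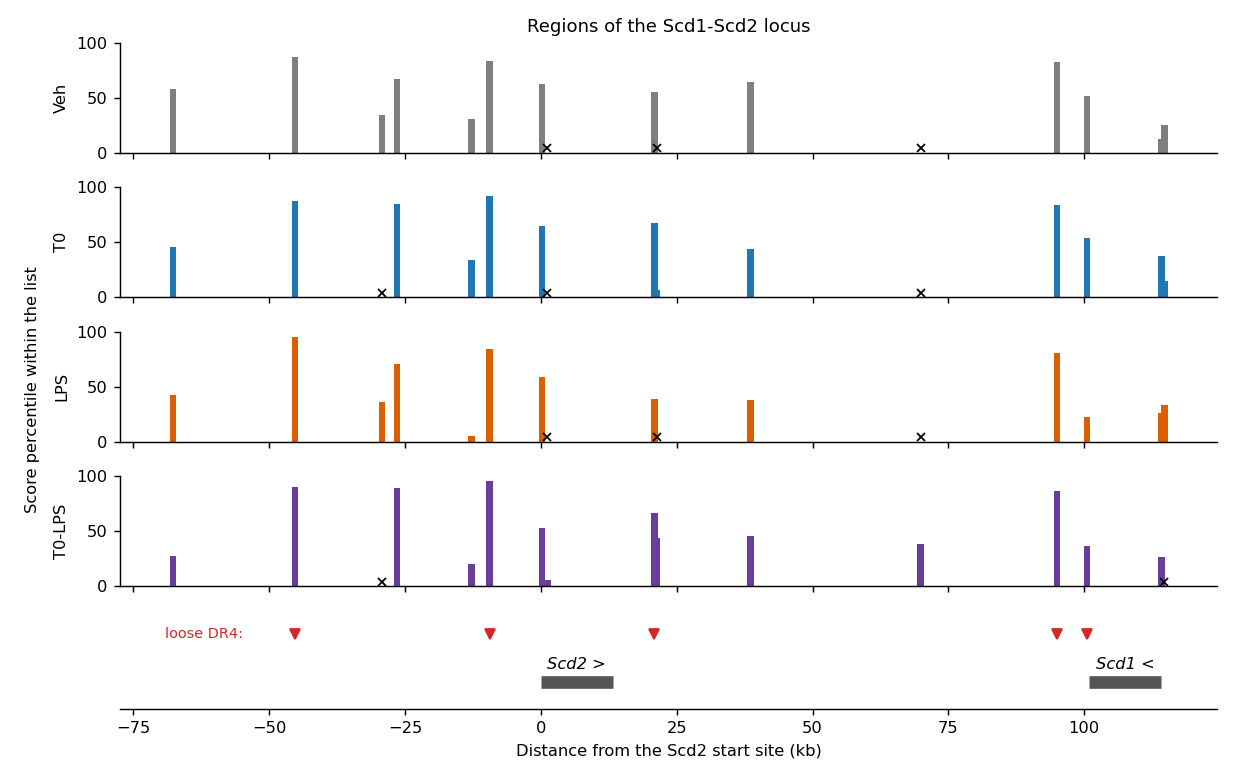
Regions of the Scd1-Scd2 locus by distance from the Scd2 TSS (x axis, kb) with their score percentile in each list (y axis, 0 to 100), crosses for no peak, genes as dark bars with their direction, and triangles at regions with the loose DR4. The regions at -26474 and 20910 bp stand higher in the T0 and T0-LPS rows than in the Veh and LPS rows, and the small bar beside the latter is seen only in the T0 rows.

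The 5 loose DR4 regions of the locus all ranked higher in T0 than in Veh, by 0.3, 8.6, 12.6, 1.2 and 2.0 points in the order printed, and 4 of 5 higher in T0-LPS than in LPS, by 12, 27.5, 5.5 and 13.9, with a shift of -4.7 at Scd2 -45266. Away from the members, 118 regions in all lists held the loose DR4 in their central 200 bp. Of these, 27.1% ranked higher in T0 than in Veh and 1.69% (2 regions) higher by 10 points or more in both pairs, against 23.2% and 0.229% of 26248 regions without it. In T0-LPS against LPS, 47.5% ranked higher and 13.6% higher by 10 points or more, against 39.9% and 7.27%.

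Fads1 and Fads2, the desaturases of polyunsaturated fatty acid synthesis, lie next to each other and had 15 regions, 7 of them shared. Here 3 of 9 regions in all lists ranked higher in T0 than in Veh, against 23.3% of all such regions. Of the 15 regions, 5 were T0-closed, against 18.3% of all regions with a Veh peak. These 5, of the 14 T0-closed member regions, were Fads2 +848 (10.8 in Veh), Fads1 -9286 (4.36), Fads1 -8791 (2.36) and the Fads2 regions at 77890 (8.61) and 76069 (12) in Rab3il1. All 5 were weak in Veh. No LPS peak was present at Fads1 -8791 and Fads2 +76069. Among the other Fads regions, an LPS peak was missing from the T0-LPS list in 3, against 10.3% of all regions with an LPS peak. These were Fads1 -9286 (11.1 in LPS), Fads2 +77890 (8.24) and Fads2 +79129 in Rab3il1. The last was not weak in Veh, at 43.9, 45 in T0 and 17.2 in LPS. Among the 9 regions in all lists the median shift was -9.94 points in T0 minus Veh (all regions -5.33) and -0.74 in T0-LPS minus LPS (all regions -1.57). Fads1 +8526 ranked lower in both pairs, at 33.7 in Veh against 17.1 in T0, and 45.1 in LPS against 31.2 in T0-LPS. Fads1 -10913 had a shift of -18.0 points in T0 minus Veh. Ranked among the regions in all 4 lists, the T0 minus Veh shifts were -3.6 at Fads1 +8526 and -3.4 at Fads1 -10913. The Fads2 promoter region at -9 was the exception, at 6.14 in Veh against 16.1 in T0, and 27.8 in LPS against 33 in T0-LPS, and also ranked higher with LPS alone, by 21.6 points. The Fads1 promoter region at 45 was at 58.3, 48.3, 64 and 63.2.

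Elovl5, a fatty acid elongase, had 11 regions, with 9 in all lists. Its strongest were upstream and changed little: Elovl5 -6622 was at 96.6 in Veh against 97.1 in T0, and 96.9 in LPS against 96.4 in T0-LPS, and Elovl5 -88655 between 95.6 and 96.5 in all lists. The promoter region at -49 was at 87.1, 83.4, 91.8 and 88. In its introns, 3 regions ranked lower with T0 in both pairs, of 7 such among all members. Elovl5 +44193 was at 53.8, 31.2, 64.4 and 49.1. Elovl5 +13615 was at 75.7, 63.7, 62.7 and 39.4, and Elovl5 +18701 at 42.6, 22.9, 21 and 9.48. These 2 also stood lower in LPS than in Veh. At the far upstream end, the regions at -91878 and -91549 had weak LPS peaks (7.89 and 8.82) and none in T0-LPS, and the latter was in the LPS list only.

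Lpcat3, the acyltransferase that loads polyunsaturated chains into phospholipids, had 10 regions in a gene-dense stretch of chromosome 6. Its promoter region at -2 (chr6:124662598-124663452) was, with that of Elovl5, the highest of the member promoters, at 85.5 in Veh against 89.8 in T0, and 90.2 in LPS against 93.6 in T0-LPS. The intron region at 25448 was lower outside Veh, at 46.3, 32.1, 32.8 and 34.9. Of the other 8 regions, none has Lpcat3 as its nearest coding gene: they lie at or within Emg1, Ptpn6, Grcc10 and Atn1. Lpcat3 +82623 in Atn1 ranked lower with T0 in both pairs, at 60.3, 41.8, 60.1 and 48.4. The weak region at 93800 near Atn1 was in Veh (3.68) and T0-LPS (2.56) only.

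Rnf145 encodes a ubiquitin ligase of the endoplasmic reticulum that is known as an LXR target and as a regulator of sterol-sensing proteins. It had 14 regions, the most of any member, against a median of 5 within 100 kb of 21911 coding genes. The intron region at 1347 (chr11:44519861-44520762), with the near matches printed above, was at 38.1 in Veh against 55.3 in T0, and 24 in LPS against 49.4 in T0-LPS. T0 went with 17.2 points more without LPS and 25.4 with it. In Veh and LPS this region consisted of 2 separate peaks, of 455 and 357 bp and of 308 and 291 bp, and in T0 and T0-LPS of 1 peak of 764 and 766 bp. The other 8 regions in all lists ranked lower in T0 than in Veh, a pair in which 23.3% of all regions ranked higher. Among the 8 were the promoter region at 2 (51.8, 35, 51.6 and 56) and the intron region at 19925 (36, 12.8, 12 and 15.9). The shift at 19925, -23.2 points, was the lowest of the T0 and Veh pair. Ranked among the regions in all 4 lists it was -9.4, and the shifts at 26455 and 27573 were 7.1 and 7.8. In T0-LPS against LPS the widest shift of the 8 was at 26455, from 43.4 to 18.2. Rnf145 +62529 was lower with T0 in both pairs, at 36.5, 25, 25.9 and 2.56, but its shift in T0 minus Veh was 0.5 when ranked among the regions in all 4 lists.

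Rnf145 also had regions that differed with LPS. Rnf145 -14609 had no peak in Veh or T0 and stood at 69.1 in LPS and 67.6 in T0-LPS, and was 1 of the 2 LPS-opened member regions. Rnf145 -42317 was at 12.6 in Veh, 51.1 in LPS and 31.6 in T0-LPS, Rnf145 -40321 at 10.8, 41.8 and 26.9, and both had no peak in T0. With Rnf145 -22648 (6.14 in Veh) and the region at 98243 beside Ebf1 (12.6), they made up 4 of the 14 T0-closed regions, and all 4 had a peak in both LPS lists. In the intron, Rnf145 +27573, which holds the sterol element core, was at 46.2 in Veh against 43.2 in T0, and 72.5 in LPS against 60.7 in T0-LPS. With LPS alone, 10 of the 56 member regions in all lists (17.9%) ranked higher by 10 points or more, against 10.3% of all, and 17 (30.4%) lower, against 24.6%.

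**Figure D5:**
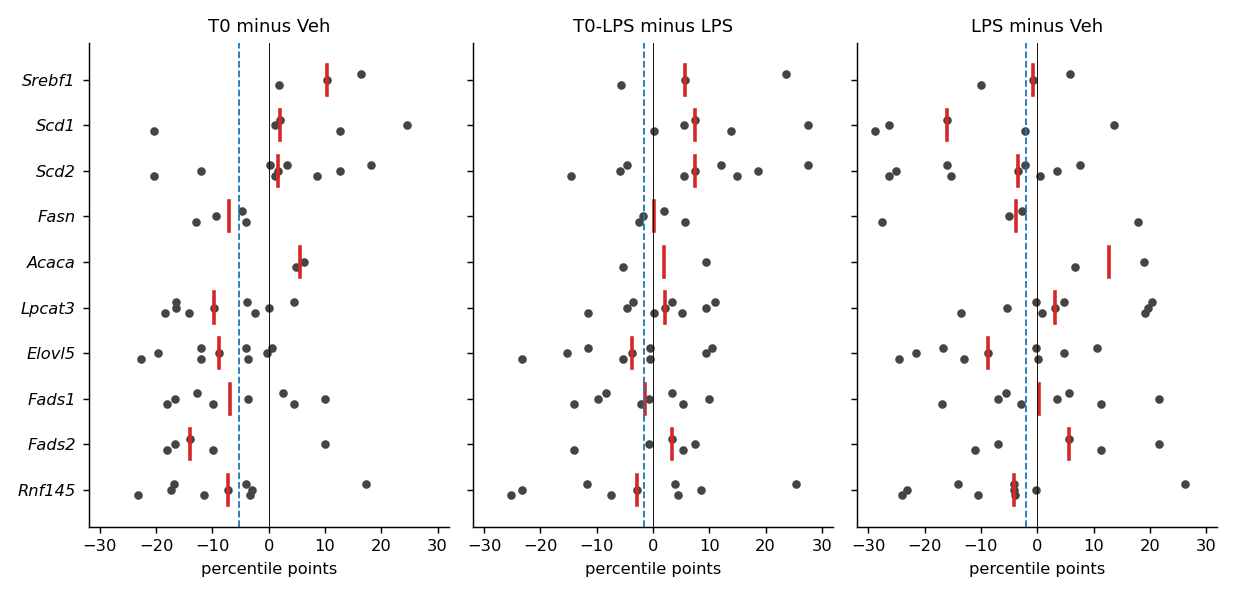
Percentile shift (x axis, points) of each region in all 4 lists, by member, in 3 pairs of lists; points are regions, red lines the median of the member, the dashed blue line the median of all regions (-5.33, -1.57 and -1.95 from left to right) and the black line 0. Srebf1, Scd1, Scd2 and Acaca have medians above 0 in T0 minus Veh, and the other 6 members have medians of -6.8 to -14.0. Ranked among the regions in all 4 lists (not drawn), the medians of Fasn and Fads1 are 1.6 and 1.8, and those of Lpcat3, Elovl5, Fads2 and Rnf145 are -0.5, -2.9, -3.4 and -4.0. Regions near 2 members are drawn for both.

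Of the 14 T0-closed member regions, 12 (85.7%) had no T0 peak and a Veh percentile under 15, against 60.1% of all 6463 T0-closed regions. The median Veh percentile was 10.8, against 12. In 11 (78.6%, against 61.6%) the peaks of the T0 list on either side were numbered consecutively, so no filtered peak could lie there. An LPS peak was present in 10 of the 14 (71.4%, against 49%) and a T0-LPS peak in 8 (57.1%, against 36.5%). At the edge of the window, the outermost regions inside 100 kb were Rnf145 +98243 (above) and Fasn +97193, at 71.5 in Veh and 58.6 in T0. The nearest outside were 100510 from Scd2, which is Scd1 +13695, and the region of Fen1 and Tmem258 at -102309 from Fads2, at 13.4 and 9.7.

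Across 35 further genes of the same pathways, with 253 regions of which 6 were also near a member, shares were set beside those over all regions. T0-closed regions made up 40 of 234 (17.1%, all regions 18.3%) and T0-opened regions 0 of 194 (all regions 0.771%). Of the 184 in all lists, 14 (7.61%, all regions 7.32%) ranked higher by 10 points or more in T0-LPS than in LPS. In both pairs, 1 (0.543%, all regions 0.25%) ranked higher and 17 (9.24%, all regions 8.67%) lower, and the median shift in T0 minus Veh was -5.45 points (all regions -5.33). The 1 region lay near Acly, which encodes ATP citrate lyase, but at the start of Nkiras2, at 39.2 in Veh against 49.2 in T0, and 35.1 in LPS against 47.7 in T0-LPS. A peak in T0-LPS but not LPS was found in 4 of 214 regions (1.87%, all regions 3.51%), near Hsd17b12 (2.56), Acsl1 (2.56), Agpat2 (15.2) and Cept1 (17.8). Insig2, which retains SREBP precursors in the endoplasmic reticulum, had the highest median in T0 minus Veh (4.2 points, 3 regions), followed by the acyl-CoA synthetases Acsl1 (1.8) and Acsl4 (1.3, a single region). The lowest were Hsd17b12 (-20.4), an enzyme of chain elongation, Mbtps2 (-13.3), a protease that releases SREBPs, and Chka (-11.7), a choline kinase. By group, a T0-closed region was near 5 of 6 genes of SREBP processing and 7 of 11 of fatty acid synthesis and elongation. It was near 3 of 4 of fatty acid activation and 6 of 14 of glycerolipid and phospholipid synthesis. The share of all coding genes was 51.7%, not matched for the number of regions per gene. Per region, the shares were 17.1% and 18.3%, as above.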

How the data were processed

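ATAC-seq libraries of 4 groups (4 each, 16 in all) were used as 4 deposited peak lists. Per the methods and the submitters' processing notes (cutadapt, Bowtie2, SAMtools, MACS2, bedtools, mm10), the authors trimmed and aligned reads, removed duplicates, called peaks at a q threshold of 0.001 on the pooled libraries of a group, and kept peaks in macrophage enhancers. The deposited score per peak grows with depth, which is unknown, and was used only as a mid-rank percentile within its list. No column was left without a group (0).

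Peaks overlapping by at least 1 bp were merged (Python 3.11.15, pandas 2.3.3, NumPy 2.4.6) and annotated with GENCODE vM21 basic; sequences came from RefSeq's GRCm38.p6, and no peak ended beyond a chromosome. A peak was missing from a list if it overlapped none of its peaks; peak numbers not consecutive on either side left room for a filtered peak. Regions were aligned with BLAST+ 2.17.0 (blastn, word size 7, E-value up to 1e-05). Functions were tested on simulated lists. Intervals are Wilson's. The members, pathway list and motifs were chosen with earlier results of these data known. All members were described; regions were described singly if opened or closed with T0 or opened with LPS, at a promoter, or among the 5 widest shifts each way with T0, and others, such as those in the figures, were chosen after their values were seen. Alternatives were list shortening, 50% reciprocal overlap, a 50 kb window, other percentiles and motif windows.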

Additional observations from a re-analysis of the deposited data

How the results depend on the processing

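The lists were pooled, so no library could be left out. No paired analysis was possible because each list has no column per replicate. Of 53 alternatives to 14 results, 45 left the value within the interval of the reported one, 3 of them with the sign of a median turned. The intervals of the median shifts, which are not Wilson's, were -9.71 to 0.271 for T0 minus Veh, -2.78 to 5.29 for T0-LPS minus LPS and -5.64 to 0.771 for LPS minus Veh. The first did not contain 1.62, the T0 minus Veh median among regions in all 4 lists (below). With all lists shortened to the 29839 highest peaks, T0-closed regions fell to 1.82% of member regions, T0-opened ones were 11.5% and LPS-opened ones 17.2% (the T0 list already had this length, so peaks left only the others). T0-opened regions were 9.84% with a reciprocal overlap of 50%, LPS-closed ones 2.08% within 50 kb, and AGGTCA was in 24.4% in a window of 400 bp (all regions 21.7%). For the opened and closed regions, the shares over all regions under these settings are not given here. These member shares therefore cannot be read against the shares over all regions above. Ranked among regions in all 4 lists, the median shift was 1.62 points for T0 minus Veh and 0.55 for LPS minus Veh, with all regions at 0.13 and 0.07, 8 of 56 (14.3%) were higher with T0 in both pairs and 2 (3.57%) lower. For T0-LPS minus LPS it was -0.20 with the mean score of a region. Chosen after seeing the data, leaving out Scd1 and Scd2 gave -0.59 for that shift and a loose DR4 share of 0% (0 of 62; 2 over whole regions). The share higher with T0 in both pairs ranged from 4.44% to 14.3%, the latter beside 2.5% of all regions. Small medians and shares of under 5 regions are thus not settled by these lists.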

Other observations

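The T0 and T0-LPS peaks of Rnf145 +1347 ran across the gap between the 2 peaks that Veh and LPS had there, and the flank of Scd2 +20910 gained its own peak in the same lists. Score and width of a peak both grow with depth, and the T0 list was the shortest, with a median member peak width of 375 bp against 463 bp for Veh, 448 bp for T0-LPS and 403 bp for LPS alone. The part of depth in any rank was not tested.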
